A study of Arabidopsis thaliana with 4 samples.

Results

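The LNK genes (night light-inducible and clock-regulated) of Arabidopsis thaliana form a family of 4, LNK1 (AT5G64170), LNK2 (AT3G54500), LNK3 (AT3G12320) and LNK4 (AT5G06980), which were chosen by locus identifier from the 25665 loci that the arrays named. The reference gene table gives the LNK name of each locus as a synonym. LNK1 and LNK4 lie on chromosome 5, and LNK2 and LNK3 on chromosome 3. Each was represented by 1 probe, and all 4 passed the filter on dim signals, as did 19246 loci in all.

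The study compared shoot apices of the ron3 mutant with those of Ler, the accession that served as its control, on 4 two-colour Agilent arrays named a to d. Per the labels, the plants were grown in vitro under a regime written LD to growth stage 1.02. Arrays a and c held ron3 RNA in Cy5 and Ler RNA in Cy3, and arrays b and d held them the other way round. The ron3 lesion, the hour of harvest and the number of plants behind each RNA are not given in the sources used here. Neither is which arrays share an RNA extract. The limma p-values and intervals therefore measure the spread between arrays of the same dye orientation, part of which may be technical. The SD given beside them is over all 4 arrays and includes the dye effect.

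LNK proteins have no known DNA-binding domain of their own. They act as coactivators, binding MYB-like factors of the morning, above all RVE8 and RVE4 and also CCA1 and LHY, which contact the evening element in the promoters of clock genes expressed later in the day. Through these factors they promote transcription of genes such as PRR5, TOC1 and ELF4, and their own transcripts peak in the first part of the day and are induced by light given at night. LNK1 and LNK2 are the longer proteins of the family and, together, are required for a clock of normal speed, while LNK3 and LNK4 are shorter. RON3, known also as SICKLE, has been linked to RNA processing, including that of clock transcripts.

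As a check of the labels, the transcript of RON3 (AT4G24500) gave log2 ratios of ron3 over Ler of −2.31 on array a, −2.27 on b, −2.21 on c and −2.41 on d, from a probe not placed here relative to the ron3 lesion. Each array had 37478 gene probes, with median spot signals of 129.5 to 164 in Cy3 and 148 to 222 in Cy5 over local backgrounds of 47 to 48 and 79.5 to 83. Of the shoot apex markers KNAT1, STM and 6 others were measured, while WUS and CLV3, which mark the organising centre and the stem cells, were well above background on 0 of 4 arrays in either genotype. The apices are bulk tissue, in which fewer cells of a type and less RNA per cell cannot be told apart.

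LNK1 and LNK3 transcripts were higher in ron3, by 1.51-fold and 1.34-fold, and LNK2 and LNK4, at 1.07-fold lower and 1.08-fold higher, did not pass the test. The family thus held 2 rises and 0 falls among 4 genes, against 69.8% of all genes tested that were called in either direction, 37.0% as rises and 32.8% as falls (limma, adjusted p below 0.05). From the scanner software's own log ratio the split over all genes turned, with 5999 rises and 7392 falls (44.8% rises among the genes called) against 7124 and 6311 (53.0%), and the median over all genes was −0.04. From that log ratio the family held 2 rises and 1 fall, that of LNK2. With 2 of 4 called in the first count, the family was called no more often than the genes at large, but 1 gene can turn this comparison. Its median log2 ratio was 0.27, beside 0.02 over all genes tested.

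All 4 probes were bright. Their median spot signals ran from 1593.5 to 4209 for LNK1, from 2156 to 3905.5 for LNK2, from 2067 to 5359 for LNK3 and from 4607.5 to 9155 for LNK4, over local backgrounds of at most 104.5. Every spot was well above background in both genotypes on all 4 arrays, 0 were saturated and 0 carried an outlier flag. The ratios below therefore rest on signals far from the detection limit. The probes differ in sequence, and their brightness sets no LNK gene above another.

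LNK1, whose loss together with LNK2 slows the clock, showed the largest ratio of the family. Its processed signal, the intensity after background subtraction and dye normalisation by the scanner software, was 7926 in ron3 and 5092 in Ler on array a, 7051 and 5025 on b, 7396 and 4110 on c, and 7897 and 5874 on d. The lowest ron3 signal lay above the highest Ler signal, so the genotypes did not overlap, as was true of 46.2% of all genes tested, with ron3 the higher in 19.7% and the lower in 26.5%. After loess normalisation the log2 ratios were 0.67, 0.49, 0.81 and 0.42 in the order of the arrays. All 4 were above 0, with the higher values on a and c, where ron3 was in Cy5. The mean was 0.60 ± 0.18 (SD, n = 4), with a 95% confidence interval of 0.48 to 0.72 (limma, adjusted p = 0.000661). In absolute size this change exceeded that of 78.7% of the genes tested.

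**Figure D1:**
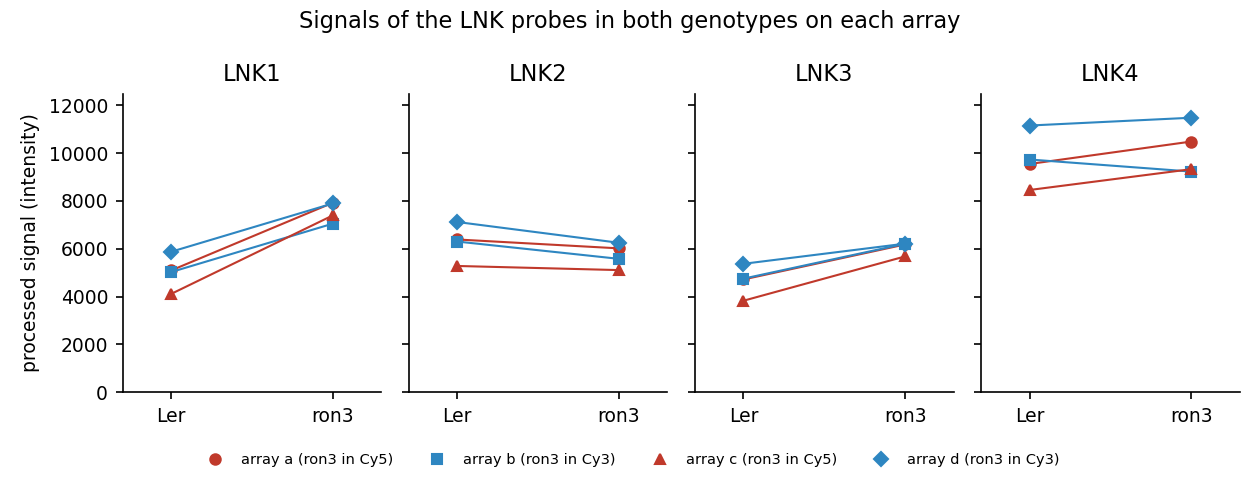
Processed signal (intensity, linear axis from 0) of each LNK probe in Ler and ron3, with 1 line per array and the dye of ron3 given by colour. Lines rise on all 4 arrays for LNK1 and LNK3, fall slightly on all 4 for LNK2 and go both ways for LNK4; heights of different probes are not comparable.

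LNK3, a shorter member that shares the family's coactivator function, was also higher. Its processed signal was 6180 in ron3 and 4715 in Ler on array a, 6208 and 4748 on b, 5679 and 3824 on c, and 6213 and 5370 on d. Again every ron3 signal lay above every Ler signal. The log2 ratios were 0.41, 0.42, 0.60 and 0.26 on the 4 arrays, with array d lowest and c highest, as for LNK1. They averaged 0.42 ± 0.14 (SD, n = 4), with an interval of 0.28 to 0.57 (limma, adjusted p = 0.00274), a change larger than that of 65.9% of the genes tested.

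LNK2, the other long member, was slightly lower in ron3 on each array. The processed signal was 6016 in ron3 and 6388 in Ler on array a, 5578 and 6301 on b, 5106 and 5279 on c, and 6250 and 7120 on d. The genotypes overlapped, and the signals differed more between arrays than between genotypes. The log2 ratios of −0.04, −0.15, −0.013 and −0.17 gave a mean of −0.09 ± 0.08 (SD, n = 4), which did not pass the test (limma, adjusted p = 0.0731). The 95% confidence interval ran from −0.19 to 0.0025. From the scanner software's own log ratio the value was −0.12 and passed (limma, adjusted p = 0.0432). On 2 of the 4 arrays, b and c, the local background of this spot carried a population outlier flag, reaching 104.5 in Cy5 on b, against a signal of 3905.5 there, and the ratio without array b was −0.10.

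LNK4, the other short member, was slightly higher in ron3 on 3 of 4 arrays. Its processed signal was 10488 in ron3 and 9550 in Ler on array a, 9232 and 9736 on b, 9332 and 8461 on c, and 11486 and 11159 on d. Signals of the genotypes overlapped, and on array b ron3 was the lower. The log2 ratios were 0.13, −0.0032, 0.19 and 0.12, with a mean of 0.11 ± 0.08 (SD, n = 4) and an interval of −0.0034 to 0.22 (limma, adjusted p = 0.0740). A rise of more than 0.22 on the log2 scale lies outside this interval, but a p that misses the threshold does not show that LNK4 was equal in both genotypes. The probe is named for the transcript At5g06980.2, one of 5 that the reference table lists for LNK4, against 8 for LNK2 and 3 each for LNK1 and LNK3, and 1 probe per gene cannot tell transcripts apart.

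**Figure D2:**
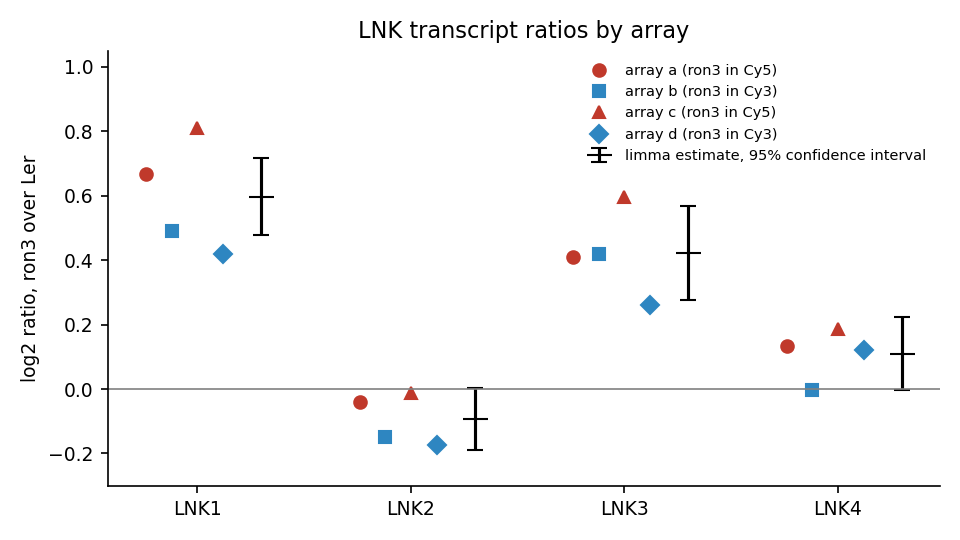
Log2 ratios of ron3 over Ler for the 4 LNK genes, with 1 symbol per array coloured by the dye of ron3, and the limma estimate with its 95% confidence interval in black. LNK1 (0.42 to 0.81) and LNK3 (0.26 to 0.60) lie above 0 on every array, and the intervals of LNK2 and LNK4 include 0.

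The error model of the scanner software, which judges each spot by itself, gave the smallest p-values for LNK1. Its deposited p-value for the log ratio was below 0.05 on 4 of 4 arrays for LNK1, with values from 0.000104 to 0.0399, and on 1 of 4 for LNK3, with 0.00677 on array c. It was below 0.05 on 0 of 4 arrays for LNK2 (0.359 to 0.814) and for LNK4 (0.489 to 0.838). These are p-values of single spots, given by the authors' files with no adjustment.

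All 4 ratios leaned with the dyes in the mean of each orientation. With ron3 in Cy5 they averaged 0.74 for LNK1, −0.03 for LNK2, 0.50 for LNK3 and 0.16 for LNK4, and with ron3 in Cy3 0.45, −0.16, 0.34 and 0.06, each over 2 arrays. The dye effect of LNK1 had an unadjusted p of 0.0288 and an adjusted p of 0.412 (limma), and those of the other members had adjusted p from 0.530 to 0.667. Since each orientation was covered by 2 arrays, a dye effect cancels in the mean of the 4. LNK1 and LNK3 were above 0 in both orientations, and LNK2 was below 0 in both. For LNK3 the orientations overlapped, at 0.42 on array b with ron3 in Cy3 against 0.41 on array a with ron3 in Cy5.

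The members were also set against each other within each array. LNK1 exceeded LNK2 by 0.69 ± 0.10 (SD, n = 4) on the log2 scale of the ratios, with differences of 0.71, 0.64, 0.82 and 0.59, and LNK3 exceeded LNK4 by 0.31 ± 0.13, with 0.28, 0.42, 0.41 and 0.14. LNK1 also exceeded LNK4 by 0.49 ± 0.14 and LNK3 by 0.18 ± 0.08, and LNK2 was below LNK3 by a difference of −0.52 ± 0.09 and below LNK4 by −0.20 ± 0.06. Each of the 6 differences kept its sign on 4 of 4 arrays. An exact two-sided sign-flip permutation test gave p = 0.125 for every pair, also after Benjamini-Hochberg adjustment over the 6, which is the smallest p that this test can give with 4 arrays, so the test could not call a difference. The order of the ratios was LNK1, LNK3, LNK4 and LNK2, and the confidence intervals overlapped between the neighbours LNK1 and LNK3 and between LNK4 and LNK2, but not between LNK3 and LNK4.

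**Figure D3:**
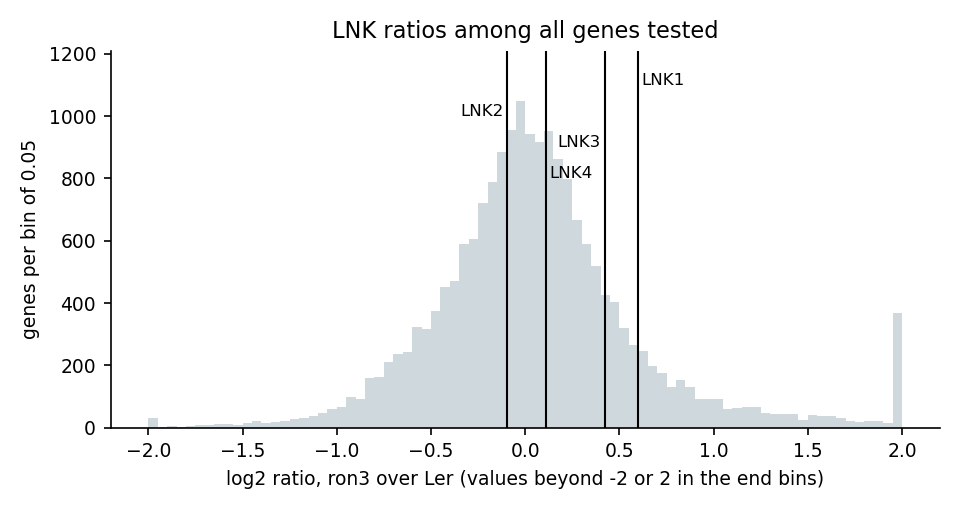
Histogram of the log2 ratios of ron3 over Ler for the 19246 genes tested, in bins of 0.05 with values beyond −2 or 2 collected in the end bins; vertical lines mark the LNK genes. LNK2 and LNK4 lie in the central peak and LNK1 and LNK3 on its right flank.

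The genes whose 4 array ratios lay nearest to each member, by Euclidean distance over the 4 arrays, were then listed. They were RGXT3, PYD2 and BZIP25 for LNK1 (distances 0.055 to 0.067), C4H and FBA1 for LNK3 (0.043 and 0.048), AT3G02740, GAUT7 and AT5G49215 for LNK2 (0.022 to 0.033), and PDLP7, AT2G07719 and AT2G28240 for LNK4 (0.038 to 0.050). Such likeness was common. Within a distance of 0.2 lay 83 genes for LNK1, 199 for LNK3, 1180 for LNK2 and 1035 for LNK4. The count was lowest for LNK1, whose mean ratio lay farthest from 0, and highest for LNK2, whose mean lay nearest. Genes are densest near 0, so these counts add nothing to the ratios themselves.

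Among the factors that LNK proteins bind or that resemble them, most transcripts were higher. Of 10 REVEILLE, CCA1 and LHY genes, all tested, 8 rose and 1 fell, with a median log2 ratio of 0.66. Over all genes tested 69.8% were called, 37.0% as rises and 32.8% as falls. RVE8, the chief partner of the LNK proteins, gave ratios of 1.71, 1.91, 1.82 and 1.98 in array order, a mean of 1.86 ± 0.12 (SD, n = 4; limma, adjusted p = 0.000148). All 4 values exceeded the highest LNK1 ratio. RVE4, the other close partner, rose by 0.35 ± 0.06 and the related RVE3, RVE5 and RVE6 by 1.15 ± 0.25, 0.37 ± 0.10 and 0.15 ± 0.15 (adjusted p from 0.00108 to 0.0305, limma).

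The call for RVE6 was lost without array a, c or d, where its log2 ratio was 0.12, 0.17 and 0.13. It was also lost with the scanner software's log ratio (0.10, limma, adjusted p = 0.142) and with median centring in place of loess (0.21, limma, adjusted p = 0.0521). The core factors LHY and CCA1, which repress evening genes, rose by 1.54 ± 0.08 and 1.32 ± 0.04. RVE1, RVE2 and RVE7 belong to another branch of the family. RVE2 rose by 0.95 ± 0.13, RVE1, at 0.16 ± 0.29, did not pass (limma, adjusted p = 0.0759) except with median centring (0.23, adjusted p = 0.0308), and RVE7 fell by 1.47 ± 0.11.

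The list named for clock genes of the afternoon and evening with evening elements was lower. The name is loose for PRR9 and PRR7, which are expressed earlier in the day. Of 8 tested, 7 fell and 0 rose, against 32.8% and 37.0% of all genes tested, with a median log2 ratio of −0.57. PRR5, a repressor whose transcription LNK proteins promote, had ratios of −1.48, −1.41, −1.49 and −1.23 on arrays a to d, a mean of −1.40 ± 0.12 (SD, n = 4; limma, adjusted p = 0.000191). ELF4, of the evening complex, stood at −0.015, −0.42, −0.42 and −0.50, with array a apart from the rest, and a mean of −0.34 ± 0.22 (limma, adjusted p = 0.0165). TOC1, at −0.08, −0.42, −0.28 and −0.03, did not pass (mean −0.20 ± 0.18, limma, adjusted p = 0.0808), but passed without array d (−0.30, adjusted p = 0.0142) and with the scanner software's log ratio (−0.35, limma, adjusted p = 0.0381).

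Of the other members of that list, FKF1, a photoreceptor of flowering time, fell by 1.08 ± 0.25 (SD, n = 4), PRR7 by 0.97 ± 0.07, LUX, also of the evening complex, by 0.68 ± 0.15, GI by 0.45 ± 0.15 and PRR9 by 0.27 ± 0.14. The call for PRR9 was lost without array a (−0.21, limma, adjusted p = 0.103) and without b (−0.21, limma, adjusted p = 0.0514), and with median centring (−0.25, limma, adjusted p = 0.0511). With the scanner software's log ratio PRR9 stood at −0.44. The LNK ratios, from −0.09 to 0.60, lay above every gene of this list, the highest of which stood at −0.20. They lay below RVE8, LHY, CCA1, RVE3 and RVE2, but not below the whole REVEILLE list. LNK1 and LNK3 exceeded RVE4, RVE5, RVE6 and RVE1, and RVE7 lay below every LNK gene.

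**Figure D4:**
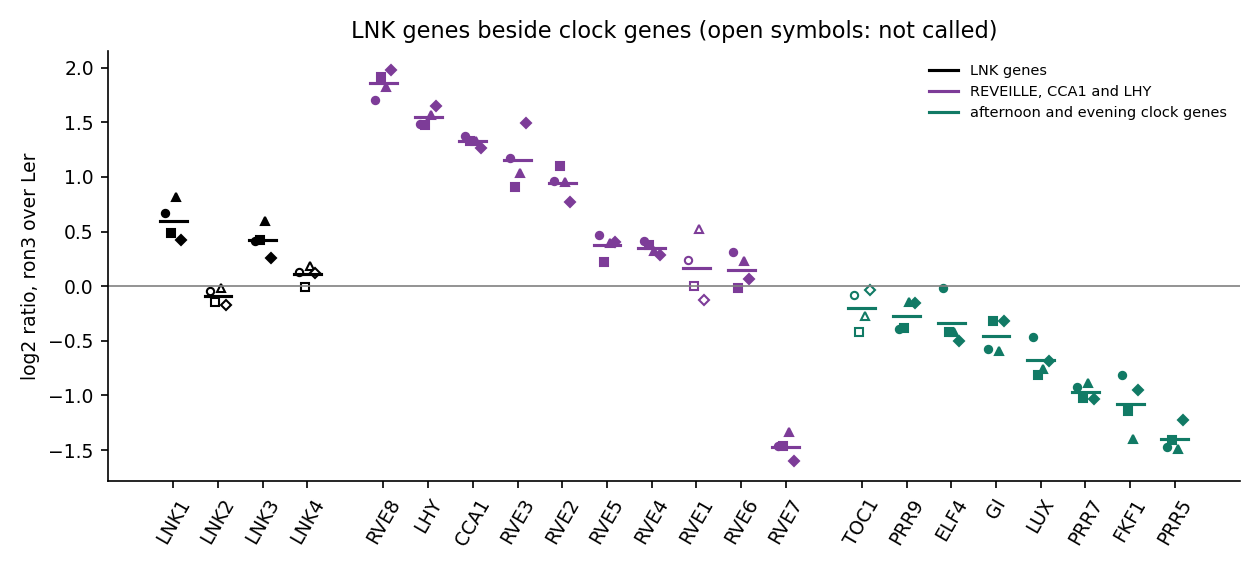
Log2 ratios of ron3 over Ler for the LNK genes (black), the REVEILLE, CCA1 and LHY genes (purple) and the list of afternoon and evening clock genes, which includes the earlier PRR9 and PRR7 (green). Each array has 1 symbol (circle a, square b, triangle c, diamond d), and a bar marks the mean. Filled symbols mark genes called by limma. Here 8 of 10 purple genes rose and 7 of 8 green genes fell, against 37.0% rises and 32.8% falls over all genes tested.

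Of 11 further clock components 2 rose and 5 fell, against 37.0% and 32.8% of all genes tested, with a median of −0.07. These components were thus called no more often than the 69.8% of all genes. PRR3, a relative of TOC1, fell by 0.73 ± 0.13 (SD, n = 4), CHE, a repressor of CCA1, by 0.48 ± 0.12 and COR27, a cold-regulated clock protein, by 0.57 ± 0.25. The value of COR27 was −1.22 with the scanner software's log ratio. Without array a, 0 of the 11 rose. The rises of ZTL and LKP2, relatives of FKF1 named after their values were seen, were 0.14 ± 0.06 and 0.22 ± 0.09. Without array a they stood at 0.15 and 0.21 and did not pass. ZTL did not pass without c or d either, nor with the scanner software's log ratio (0.09, limma, adjusted p = 0.0909). A fit on fewer arrays has less power, with 10035 genes called without array a against 13435, and a lost call need not mean a smaller ratio. With median centring ZTL stood at 0.21.

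LNK proteins have also been tied to phenylpropanoid genes, through RVE8 and through MYB3, a repressor of C4H. Of the 10 genes on that list 9 rose and 1 fell, against 37.0% and 32.8% of all genes tested, with a median log2 ratio of 2.12. The 3 with the smallest p stood at 2.67 ± 0.33 for PAP1, an activator of anthocyanin genes, 2.09 ± 0.16 for CHS, chalcone synthase, and 1.88 ± 0.10 for F3H (SD, n = 4). C4H, an enzyme of the pathway, had ratios of 0.40, 0.43, 0.64 and 0.26, as against 0.41, 0.42, 0.60 and 0.26 for LNK3. It was picked as near to LNK3 by these same ratios, and 199 genes lay within 0.2 of LNK3. A link between the 2 was not tested. The 1 fall was that of MYB3, at −1.19 ± 0.17. MYB4, another MYB gene on the list, was among the rises, at 0.51 ± 0.29, and lay above 0 on all 4 arrays. Both were named after their values were seen.

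Markers of other tissues moved between the genotypes as well, where 37.0% of all genes tested rose and 32.8% fell. Of 9 root markers tested 8 rose and 0 fell. Summed over all 11 probes of the list, also those that failed the filter, the processed signal was 847 to 1884 in ron3 and 564 to 724 in Ler. Of the 11 probes, 6 were well above background on 0 arrays in Ler. Of the 9 tested, EXPA7, EXPA18, RSL4 and PRP3 were well above background on 0 of 4 arrays in Ler and so passed the filter only through ron3. Of the other 5, a count added after the data were seen, 4 rose and 0 fell, and their log2 ratios averaged 0.79, 0.75, 0.86 and 0.24 on arrays a to d. Averaged over all 9, the log2 ratio was 0.69 on array a, 0.61 on b, 0.69 on c and 0.15 on d, and array d also gave the lowest LNK1 and LNK3 ratios. Without array a 4 of the 9 root markers were called as rises, though their median log2 ratio went from 0.43 to 0.48. With the log ratio of the scanner software 5 were called as rises and 1, WOX5, as a fall (−0.33, limma, adjusted p = 0.0048). All 6 leaf mesophyll markers were called as falls, with summed signals of 634310 to 733860 in ron3 and 703971 to 938968 in Ler. Of these, 3 were called without array a, 4 without c and 4 without d. With the log ratio of the scanner software 4 were called, and RBCS1A changed sign. The sign followed the dye for LHCB1.1, at 0.19, −0.44, 0.20 and −0.66 on arrays a to d, above 0 only with ron3 in Cy5. LHCB2.1, at −0.59, 0.14, −0.47 and −0.0082, leaned the other way with the dyes. LHCB3, RBCS1A, PSAD1 and PSBO1 were below 0 on every array. Of 8 shoot apex markers tested 4 rose and 3 fell. The part of these tissues in the LNK ratios was not tested.

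**Figure D5:**
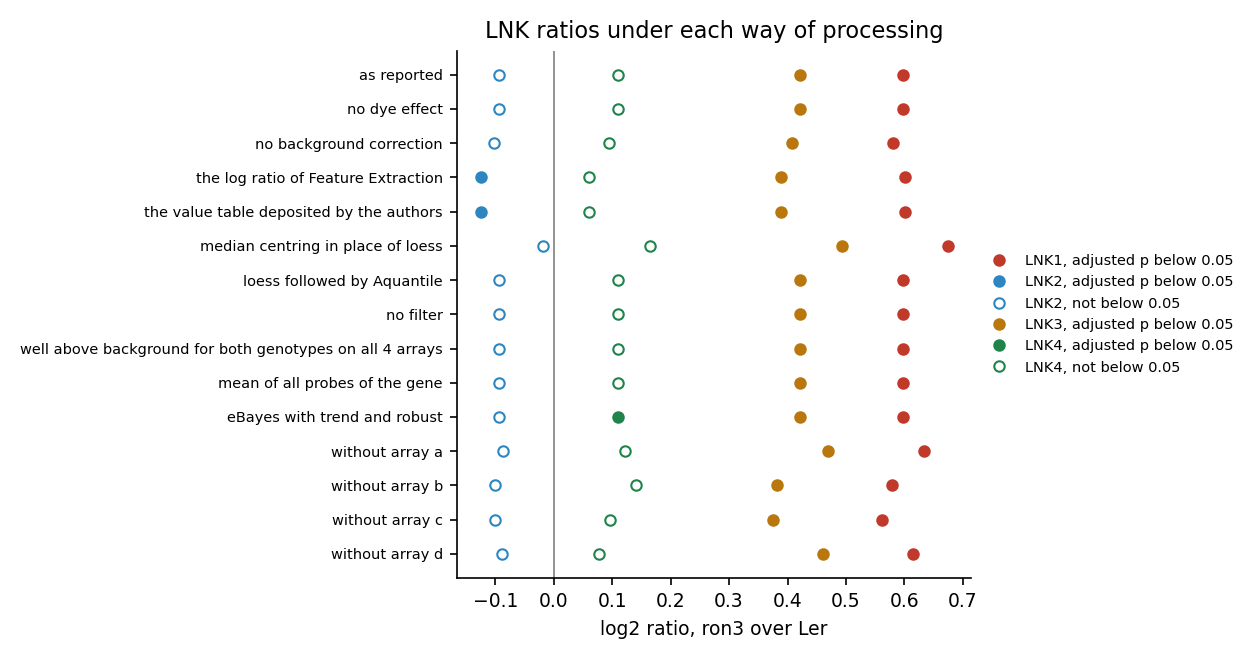
Log2 ratio of ron3 over Ler (horizontal axis) of each LNK gene as reported and under 14 other ways of processing (rows); filled circles have a limma adjusted p below 0.05. LNK1 (0.56 to 0.67) and LNK3 (0.37 to 0.49) are filled in every row, LNK2 in 2 rows and LNK4 in 1.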

How the data were processed

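Agilent Feature Extraction 10.1.1.1 quantified the spots, per the submitters' processing notes. Per the file headers, the deposited signals of spots and of their local background are median intensity, the processed signals are intensity after background subtraction and dye normalisation, the log ratio is log10 of Cy5 over Cy3, and each spot has a p-value for it. Flags of other kinds are 0 or 1. A value table of the authors, also deposited, gives log2 ratios of processed signals, already ron3 over Ler and not centred, with medians of −0.0109, −0.123, 0.00837 and −0.167 on arrays a to d. All arrays lay on the same slide.

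Median signals were corrected with normexp (offset 50) and normalised by loess within arrays in limma 3.58.1 under R 4.3.3, with controls at weight 0. Outlier spots were left out and repeated spots averaged. A probe had to be unflagged on 3 or more arrays and, in ron3 or in Ler, well above background on 2 or more, and the brightest stood for its gene. A model with a dye effect per probe (2 residual and 2.45 prior degrees of freedom) was fitted over 19246 genes, two-sided, with Benjamini-Hochberg adjustment at 0.05. The dye effect was called for 0 genes by limma, with 2208 at an unadjusted p under 0.05. The number of arrays limits the precision. The procedure was also run on simulated data with few planted changes and independent noise. That run cannot give the error rates here, where 69.8% of genes were called and arrays may share an RNA extract. The 48 pathway genes had 1 probe each.

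The 4 members and the lists were chosen with earlier results of these data known. Genes named were the LNK members, every REVEILLE, CCA1 and LHY gene and afternoon or evening gene of the lists, up to 3 genes with the smallest p of each other pathway list, RON3, and the 3 nearest patterns of each member, 1 of which is not reported here. Names came from the reference table of TAIR10.1, whose coordinates were not used. The alternatives drop the dye effect or the background correction or use the software's log ratio, the authors' values, median centring, Aquantile, 2 other filters, the mean of all probes, or another moderation, or leave out each array in turn.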

Additional observations from a re-analysis of the deposited data

Results flagged for a closer look

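In 3 of 93 sets of 4 array values, 1 array stood far from the rest, where chance alone marks about 1 set in 20. None of the 3 was an LNK gene or a difference between LNK genes. The light receptor CRY1 was at 0.057 on array c and between −0.18 and −0.15 on the others. The root iron transporter IRT1 was at 0.67 on array d against 1.61 to 1.73, and the root hair expansin EXPA18 at −0.035 on array d against 0.63 to 0.76. Another probe of IRT1 was well above background on 0 arrays in either genotype. EXPA18 was well above background on 3 arrays in ron3 and on 0 in Ler, so its ratios lie near the detection limit.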

How the results depend on the processing

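LNK1 and LNK3 kept their rise and their call under all 14 alternatives, with log2 ratios of 0.56 to 0.67 and 0.37 to 0.49 and adjusted p (limma) of 0.000309 to 0.00800 and 0.000932 to 0.0207. LNK2 stayed below 0 under all 14, from −0.12 to −0.02 (adjusted p 0.0432 to 0.825), and passed the threshold with the log ratio of Feature Extraction and with the authors' values, at −0.12 in both. LNK4 stayed above 0, from 0.06 to 0.16 (adjusted p 0.0488 to 0.286), and passed with a trended, robust moderation, at 0.11 (limma, adjusted p = 0.0488). The cause of these changes was not tested. Leaving out each array in turn gave 0.56 to 0.63 for LNK1, −0.10 to −0.09 for LNK2, 0.37 to 0.47 for LNK3 and 0.08 to 0.14 for LNK4. It gave 10035 to 13244 genes changed against 13435. Of the REVEILLE, CCA1 and LHY genes 8 to 9 were called against 9, and of the afternoon and evening list 6 to 8 against 7. The other alternatives gave 11987 to 14255 genes changed. The 6 differences between members kept their direction under the 5 alternatives run for them. Aquantile leaves ratios as they are and so moved none of these values. Each array's ratio already pairs the genotypes, and no further block was fitted, since all 4 arrays form 1 group.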

Other observations

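Light receptors and light signalling genes, which feed into LNK transcription, went both ways: of 9 tested 5 rose and 3 fell, with a median log2 ratio of 0.18. Over all genes tested 37.0% rose and 32.8% fell. HY5, a transcription factor that promotes light responses, rose by 0.57 ± 0.14 (SD, n = 4), and COP1, a ubiquitin ligase that acts against HY5, rose by 0.31 ± 0.07. PHYA, the far-red light receptor, fell by 0.54 ± 0.09. Without array a 4 of the 9 rose and 3 fell, and without array c 4 rose and 2 fell.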
